A study of Danio rerio with 18 samples.

Results

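Whole zebrafish embryos exposed to TMAT gold nanoparticles were compared with unexposed embryos of the same age, 48 hours post fertilization (hpf), on 1-colour NimbleGen expression arrays. The comparison takes every array labelled TMAT or control at 48 hpf, which is 6 of the 18 arrays in the series: 3 TMAT arrays and 3 control arrays. TMAT embryos were kept in 10 µg/mL of particles with a 1.5 nm gold core and a trimethylammoniumethanethiol ligand, which is cationic. Control embryos received the vehicle. The other 12 arrays hold TMAT embryos at 24 hpf, embryos in 50 µg/mL of MES particles (the same core size with an anionic mercaptoethanesulfonate ligand) at both ages, and controls at 24 hpf. They share in the estimate of the spread and serve as comparisons below. Embryos of all groups lost their chorions at 4 hpf, their exposure began at 6 hpf and the labels give an incubation temperature of 37 °C. Each array holds RNA of 40 pooled embryos, and nothing in the labels ties the pools to separate clutches, so the p-values measure only the spread between these pools. RNA came from whole embryos, so fewer cells of a type and less RNA per cell cannot be told apart. The labels give neither strain nor genotype.

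Positively charged particle surfaces adhere to negatively charged cell membranes. A dechorionated embryo meets such particles first at its skin, where ionocytes take up calcium and other ions from the water. Between 24 and 48 hpf the zebrafish embryo builds its lens fibres, wires its brain and spinal cord, and starts to secrete neuropeptides and hormones, so genes of these tissues are at work over the period of the exposure. The question named by the series title is how the surface functionality of gold particles affects gene expression in the embryo.

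The arrays gave an intensity for 37105 features after the control feature, a summary of 3342 random probes, was set aside. A current gene symbol was available for 2659 features (2646 symbols), and the other 34446 are counted without a name. Over the 18 arrays the median intensity ran from 1809 to 2197. No feature reports the particle itself, so the agent labels could not be checked on expression. The age labels could be: for 767 features chosen as at least 4-fold higher at 48 than at 24 hpf in the MES arrays, the median log2 intensity was 12.28 to 12.67 in the TMAT arrays and 12.30 to 12.49 in the control arrays at 48 hpf, and 10.05 to 10.62 in the TMAT and control arrays at 24 hpf. A combined table deposited beside the per-array tables labels 16 of its 18 columns with another sample, and 1 of its 6 TMAT and control columns at 48 hpf carried the label of its own per-array table. The labels of the per-array tables were used throughout. The 3 control arrays varied more than the 3 TMAT arrays, with a median SD of 0.42 against 0.25 in TMAT arrays on the log2 scale and a mean correlation across features of 0.933 against 0.981 within the TMAT group. Random-probe intensity, a measure of background, was 83.2, 79.6 and 96.4 in TMAT arrays 1, 2 and 3, against 106, 169 and 82.8 in control arrays 1, 2 and 3. Control array 2 also had the lowest mean correlation with the arrays of its age (0.881).

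With TMAT particles at 48 hpf, the smallest p of a named gene was that of the vesicle traffic gene trappc2l, which was higher. Also higher among the named genes were 2 peptide precursors (avp and npffl) and 3 gamma M2 crystallins of the lens. The calcium channel trpv6 and the complement gene c3a.2 were higher as well. Named lower genes included a receptor of the neuropeptide PACAP (adcyap1r1a), the opioid precursor pdyn and the small Maf gene mafga. The naming rule takes the smallest p-values among genes whose TMAT and control values do not overlap. The 15 higher genes taken by the naming rule differed from control by 0.81 to 3.40 on the log2 scale and the 15 lower ones by −0.84 to −1.79. None reached the threshold of a call: limma found 0 of 37105 features (0%) at an adjusted p under 0.05. The smallest adjusted p was 0.0649, shared by 311 features. At an adjusted p under 0.1 there were 1482 features (3.99%), 929 of them higher (2.5%) and 553 lower (1.49%) in TMAT embryos. The median difference, TMAT minus control on the log2 scale, was 1.94 for the 929 and −1.16 for the 553. At an unadjusted p under 0.05 there were 7519 features (20.3%), of which 3061 were higher (8.25%) and 4458 lower (12%). The 3 TMAT values lay above all 3 control values in 2880 features (7.76%) and below all 3 in 5900 (15.9%).

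The balance between higher and lower values differed among classes of features. Over all features the median difference was −0.15 and 37.6% were positive, while over the features with a symbol it was −0.24 and 27.9% were positive. Of the 2659 features with a symbol, 65 (2.44%) had an adjusted p under 0.1, of which 25 were higher (0.94%) and 40 lower (1.5%), and 463 (17.4%) had an unadjusted p under 0.05, of which 96 were higher (3.61%) and 367 lower (13.8%). Their groups did not overlap in 116 higher (4.36%) and 505 lower (19%) features. The features with a symbol thus held fewer higher values than the array as a whole. When every array was centred on its own median, the median of all features moved by 0.11, to −0.04, and the share of higher values at an adjusted p under 0.1 was then 76.7% of 1276 features, against 62.7% of 1482 as deposited. At an unadjusted p under 0.05 the share of higher values was 40.7% as deposited, 56.9% after centring and 50.5% after a second quantile normalization. The direction of a difference near 0 therefore depended on the scaling, and the values below are best read against these medians.

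Level on the array and direction went together. Features were split into quartiles by their mean level on the 12 arrays outside the comparison. In the dimmest quartile 5.26% were higher and 19.8% lower at an unadjusted p under 0.05, with a median of −0.30. In the brightest quartile 8.25% were higher and 3.75% lower, with a median of −0.02. The spread followed the same order in controls: the median SD was 0.22 in TMAT and 0.54 in control arrays for the dimmest quartile, and 0.20 in TMAT and 0.27 in control arrays for the brightest. With log2 random-probe intensity of each array as a covariate in the limma fit, 0 features passed an adjusted p of 0.1 and 2718 had an unadjusted p under 0.05. The 30 genes taken by the naming rule all kept their direction in that fit, at a median of 0.77 of their difference.

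**Figure D1:**
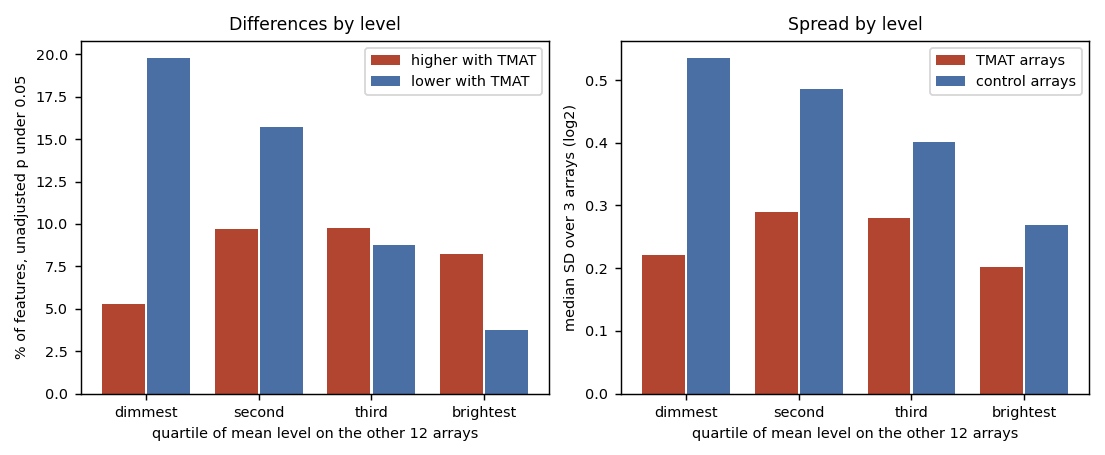
Left, the percentage of features at an unadjusted p under 0.05 in each quartile of mean level on the 12 arrays outside the comparison, higher with TMAT particles (red) and lower (blue). Right, the median SD over the 3 TMAT arrays (red) and the 3 control arrays (blue) in the same quartiles. Lower features make up 19.8% of the dimmest quartile and 3.75% of the brightest.

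The 3 control arrays did not stand equally far from the TMAT arrays. Among the 1482 features at an adjusted p under 0.1, control array 3 was the control nearest to the TMAT mean in 1356 (91.5%, against 60.3% of all features), control array 1 in 47 and control array 2 in 79. Among the 30 genes taken by the naming rule, it was nearest in 26, and control array 2 was farthest in 22. Leaving out control array 3 gave 6310 features at an adjusted p under 0.05 and 9877 under 0.1. Leaving out control array 1, control array 2, TMAT array 1 or TMAT array 3 gave 0 at both thresholds, and leaving out TMAT array 2 gave 0 and 856. With control array 3 as the only control, 875 features had an unadjusted p under 0.05 and 0 passed an adjusted p of 0.1. The 30 genes were chosen for groups without overlap, so leaving out arrays could not change their direction. In the last of these fits, added after these data were seen, they were at a median of 0.60 of their difference.

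**Figure D2:**
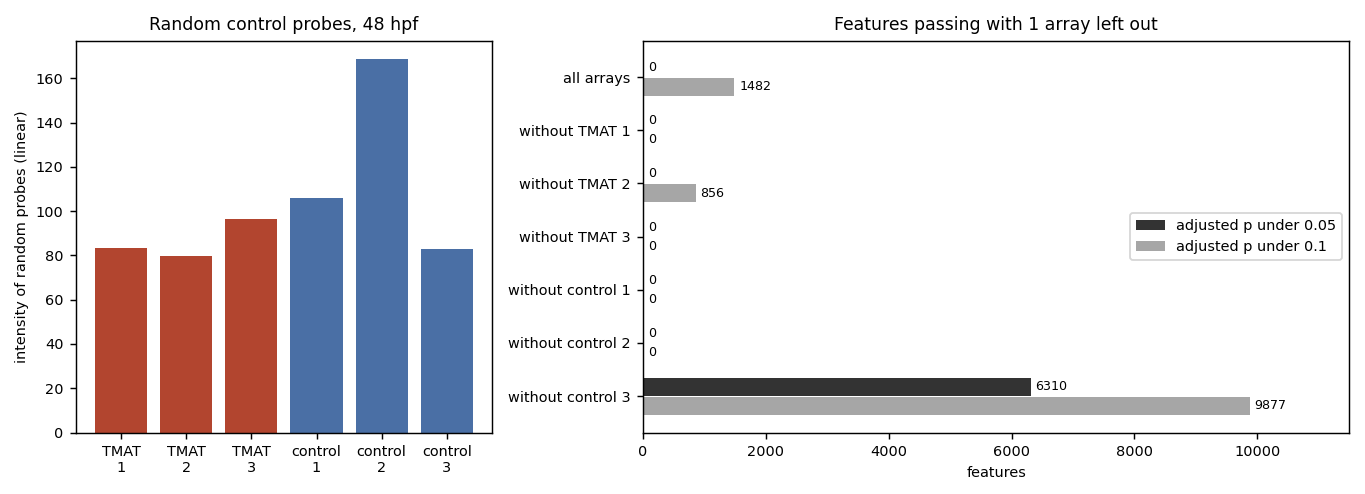
Left, intensity of the random control probes on a linear scale for the 3 TMAT arrays (red) and the 3 control arrays (blue) at 48 hpf, highest in control array 2 at 169. Right, the number of features at an adjusted p under 0.05 (dark) and under 0.1 (light) with all arrays and with each of the 6 arrays left out, which is 1482 under 0.1 with all arrays and 9877 without control array 3.

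The gene lists below are read against the features with a symbol, of which 3.61% were higher and 13.8% lower at an unadjusted p under 0.05 and 72.1% had a negative difference. Their medians depended on single arrays: with 1 of the 6 arrays left out, the median of 34 of the 35 lists moved by over 1.5 times or changed sign, that of vesicle traffic being the exception. This happened in 19 lists without control array 2 and in 25 without control array 3. The sign changed in 11 lists, which were retina, epidermis, complement, oxidative stress, xenobiotic metabolism, endoplasmic reticulum stress, liver, vessels, mitochondria, ribosome and odorant receptors.

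Genes of peptide signals were found on both sides. The gene avp (NM_178293) encodes the precursor of vasotocin, the hormone of the neurohypophysis that acts on water balance and behaviour in fish. Its log2 intensity was 12.85, 11.75 and 12.50 in TMAT arrays, against 9.38, 9.50 and 11.05 in control arrays. All TMAT values lay above all controls, and control array 3 lay closest to them. The difference was 2.39 ± 0.45 SE, a 5.25-fold higher geometric mean (n = 3 per group, limma adjusted p = 0.0649). This SE, like the other ± values not marked as SD, rests on a spread shared by all groups of the series. For avp the SD was 0.56 in TMAT and 0.93 in control arrays. Control arrays had the larger SD in 27 of the 30 genes taken by the naming rule. The SE, and intervals built on it, can therefore be too narrow where control arrays spread widely. The gene npffl (NM_183346), a precursor of RFamide peptides related to neuropeptide FF, had 12.55, 11.76 and 12.84 in TMAT arrays, against 9.81, 9.86 and 10.09 in control arrays. Here the controls stood close together (SD 0.15) and the nearest was 1.66 log2 units below the lowest TMAT array. The difference was 2.46 ± 0.48 (limma adjusted p = 0.0649).

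Other peptide genes lay on the lower side. The opioid precursor gene pdyn (NM_001001831), which gives rise to dynorphins, had 9.52, 9.59 and 9.74 in TMAT arrays, against 11.04, 11.26 and 10.22 in control arrays. The TMAT arrays agreed within 0.22 log2 units and lay below every control. The difference was −1.22 ± 0.26 (limma adjusted p = 0.0649). The gene pthlha (NM_001024627), a relative of parathyroid hormone, had 8.38, 8.40 and 7.89 in TMAT arrays, against 9.07, 10.12 and 8.87 in control arrays, a difference of −1.13 ± 0.27. Control array 2 was the high one of the controls. Of the 18 measured peptide and hormone genes, 3 were higher (16.7%) and 3 lower (16.7%) at an unadjusted p under 0.05. The shares over features with a symbol were 3.61% and 13.8%. In the list 2 genes each way passed an adjusted p of 0.1. The median of the list was −0.08, against −0.24 over features with a symbol, and it turned to 0.03 when arrays were centred.

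All 6 measured receptors of peptide signals had negative differences, where 72.1% of features with a symbol did, with a median of −0.52 that was −0.27 without control array 2. The gene adcyap1r1a (NM_001013444) encodes a receptor for PACAP, a neuropeptide that acts through cyclic AMP in brain and endocrine cells. It had 10.08, 10.00 and 9.83 in TMAT arrays, against 11.96, 12.16 and 11.16 in control arrays. The TMAT arrays lay more than 1 log2 unit below the lowest control. The difference of −1.79 ± 0.33, 3.46-fold lower in TMAT embryos, was the largest of the 15 lower genes taken by the rule (limma adjusted p = 0.0649). The related receptor gene vipr1b was at −0.66 ± 0.24 without overlap of the groups (limma adjusted p = 0.150). The hypocretin receptor gene hcrtr2 (−0.69 ± 0.34) and the delta opioid receptor gene oprd1b (−0.23 ± 0.23) had overlapping groups.

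In the lens, the gamma M2 crystallins, structural proteins that fill the fibre cells, gave 3 of the 15 named higher genes. The gene crygm2a (NM_001018121) had 11.91, 9.72 and 11.83 in TMAT arrays, against 7.83, 8.48 and 8.72 in control arrays. TMAT array 2 was the lowest of the exposed arrays and still above each control. The difference was 2.81 ± 0.62 (limma adjusted p = 0.0649). The gene crygm2d4 (NM_001089431) had 13.93, 14.02 and 14.68 in TMAT arrays, against 11.37, 10.03 and 13.65 in control arrays, a difference of 2.53 ± 0.64 (adjusted p = 0.0706). Its control array 3 lay 0.28 below the lowest TMAT array, while control arrays 1 and 2 lay far below. The gene crygm2b (NM_001020783) had 10.53, 8.91 and 10.85 in TMAT arrays, against 8.13, 8.56 and 7.79 in control arrays, with a difference of 1.94 ± 0.51 (limma adjusted p = 0.0782). Its TMAT array 2 lay 0.35 above the nearest control. Both crygm2a and crygm2b were dim in controls. Their control means were 8.35 and 8.16 at 48 hpf, against 7.99 and 8.04 at 24 hpf.

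The other 7 gamma M2 crystallins had positive differences as well: crygm2d7 at 0.85, crygm2d2 at 0.79, crygm2d5 at 0.51, crygm2d17 at 0.43, crygm2d3 at 0.38, crygm2d13 at 0.31 and crygm2d20 at 0.18. None of these 7 had an unadjusted p under 0.05. Except for crygm2d17 they were above 15 on the log2 scale in every TMAT array, near the highest mean level of any feature (15.9), so the size of their differences cannot be compared with that of dimmer genes. As an example, crygm2d2 was at 15.76, 15.60 and 15.84 in TMAT arrays against 14.99, 14.05 and 15.80 in control arrays. The signs of crygm2d3 and crygm2d20 turned with random-probe intensity as a covariate. The gamma M2 crystallins are close paralogs, and cross-hybridization between their probes was not tested. Not all lens genes lay on the higher side. The lens fibre membrane gene lim2.5 (NM_001013522) had 11.16, 11.93 and 12.14 in TMAT arrays, against 12.49, 13.24 and 12.22 in control arrays, a difference of −0.91 ± 0.29 (limma adjusted p = 0.120). Of 25 measured lens genes, 3 were higher (12%) and 2 lower (8%) at an unadjusted p under 0.05. The shares over features with a symbol were 3.61% and 13.8%. The median of the lens list was 0.12, with 0.04 without control array 2 and 0.23 without control array 3. Photoreceptor genes were split as well. Of 10 measured, the calcium sensor genes guca1ab.1 and guca1g were at 0.89 ± 0.36 and −0.83 ± 0.25, the arrestin gene sagb was at −0.71 ± 0.24, and the retinoschisin gene rs1a, at 0.40 ± 0.40, turned to −0.13 without control array 2. The value of guca1ab.1 in control array 2, 6.86, was below the random-probe level of 7.40 on that array.

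The skin and its ionocytes are the embryo's surface to the particle suspension. The gene trpv6 (NM_001001849) encodes the epithelial calcium channel through which ionocytes take calcium from the water. It had 11.85, 12.14 and 12.14 in TMAT arrays, against 11.01, 10.39 and 11.06 in control arrays. The groups were separated by 0.79 log2 units. The difference was 1.22 ± 0.25, 2.33-fold higher in TMAT embryos (limma adjusted p = 0.0649). Of 14 measured genes of ionocytes and osmoregulation, 2 were higher (14.3%) and 1 lower (7.14%) at an unadjusted p under 0.05. The shares over features with a symbol were 3.61% and 13.8%. The median of the list was −0.09 and turned to 0.02 with centred arrays. The carbonic anhydrase gene ca15c was at 0.81 ± 0.28 with no overlap (limma adjusted p = 0.140). The gene stc1, for stanniocalcin, a hormone that restrains calcium uptake in fish, was at −0.68 ± 0.25, with 8.03, 8.25 and 7.91 in TMAT arrays against 9.02, 9.07 and 8.15 in control arrays, which overlapped. The potassium channel gene kcnj1b was at −0.41 ± 0.22. Among 14 genes of epidermis and epithelium 0 were higher and 1 was lower at an unadjusted p under 0.05, the claudin gene cldn7a at −0.85 ± 0.29.

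Among plasma proteins, c3a.2 (NM_131243), which encodes a form of the central complement component C3, had 11.30, 11.20 and 11.44 in TMAT arrays, against 8.72, 9.76 and 10.05 in control arrays. The TMAT arrays lay within 0.25 log2 units of each other and above all controls. The difference was 1.80 ± 0.38, 3.48-fold higher (limma adjusted p = 0.0649). The acute-phase gene crp4, of the C-reactive protein family, was at 0.87 ± 0.31 with no overlap, and the coagulation factor genes f10 and f3b were at −0.82 ± 0.36 and −0.39 ± 0.28. Of 12 measured members 2 were higher (16.7%) and 1 lower (8.33%) at an unadjusted p under 0.05. The shares over features with a symbol were 3.61% and 13.8%. The median of the list was 0.13 with all arrays and −0.10 without control array 2. Of 37 measured genes of innate immune cells and inflammation, 1 was higher and 7 were lower (18.9%, against 13.8% of features with a symbol) at an unadjusted p under 0.05 and 0 passed an adjusted p of 0.1 in limma. Their median was −0.39, and it was −0.15 without control array 2 and −0.59 without control array 3. Their mean log2 level was 8.81 to 8.96 in TMAT arrays, against 8.77 to 9.71 in control arrays, highest in control array 2, the array with the highest random-probe intensity. With that intensity as a covariate the median was −0.13. The member with the smallest p was stat4, a transcription factor of cytokine signalling, at −0.79 ± 0.31.

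**Figure D3:**
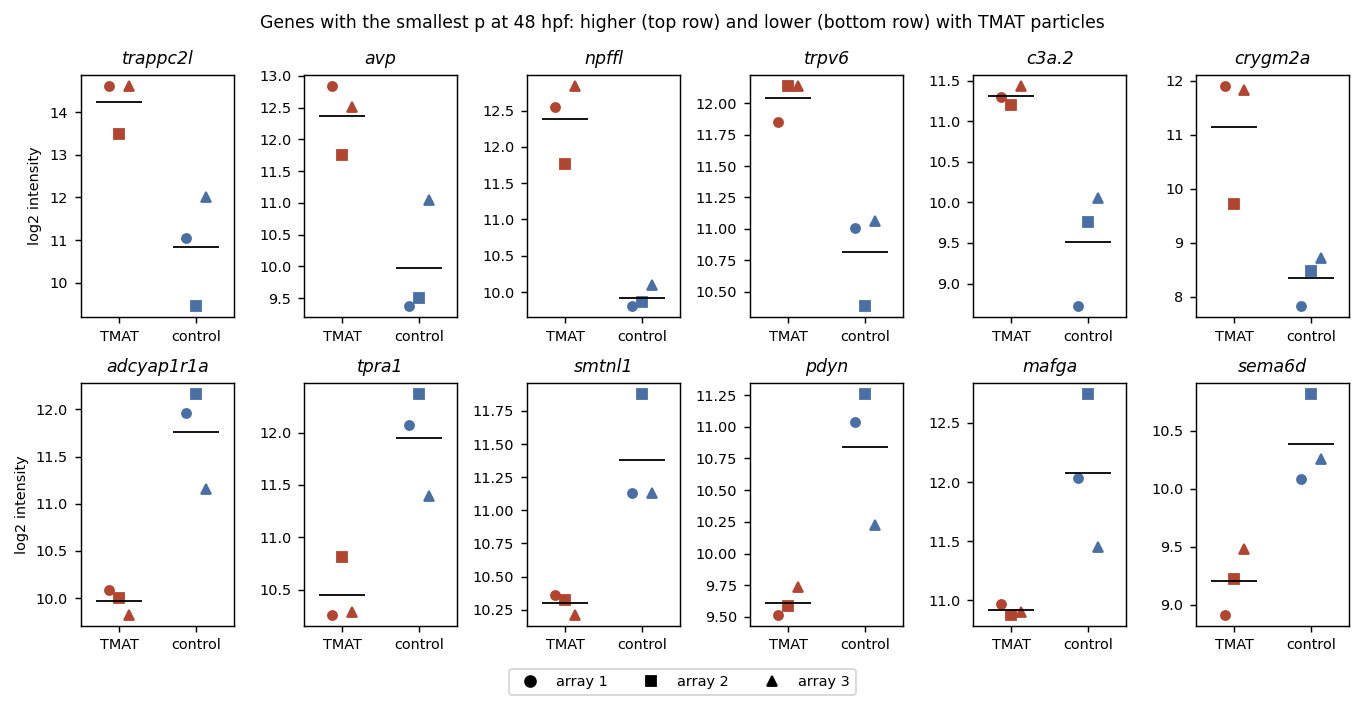
Log2 intensity on each array for 6 named higher genes (top row, smallest p first) and 6 on the lower side (bottom row), TMAT arrays in red and control arrays in blue, with the array number as the symbol and the group mean as a line. The naming rule takes only genes whose groups do not overlap. The control arrays spread more than the TMAT arrays in most of the 12 genes.

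The largest difference of a named gene was that of trappc2l (NM_001003506), a subunit gene of the TRAPP complexes that tether transport vesicles. It had 14.61, 13.49 and 14.62 in TMAT arrays, against 11.05, 9.46 and 11.998 in control arrays. The difference was 3.40 ± 0.56, or 10.6-fold (limma adjusted p = 0.0649), on a feature of only 3 probes. Controls and TMAT arrays were apart by 1.49 log2 units at the nearest. Of 55 genes of vesicle traffic, 4 were higher (7.27%) and 8 lower (14.5%) at an unadjusted p under 0.05. The shares over features with a symbol were 3.61% and 13.8%. The median of the list was −0.17. The ESCRT gene chmp6b (NM_001003874), which acts in sorting membrane proteins into endosomes, was higher by 1.25 ± 0.30 (adjusted p = 0.0654), with 13.46, 13.40 and 13.76 in TMAT arrays against 12.38, 11.57 and 12.91 in control arrays.

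The other named higher genes came from varied families. For xkr4 (NM_001077752), of the XK-related membrane proteins, TMAT arrays had 14.87, 14.77 and 14.83, against 12.86, 12.32 and 14.36 in control arrays. The difference was 1.64 ± 0.38 (adjusted p = 0.0649), while a second feature of the same symbol (NM_001012258) was at 0.20 ± 0.23 with overlapping groups, so the 2 features disagreed. The mitochondrial gene mterf2, of the family of transcription termination factors, was at 1.87 ± 0.44 (adjusted p = 0.0652). The mitochondrial carrier gene slc25a47a was at 0.81 ± 0.20, the smallest of the 15. The epithelial polarity gene crb3a was at 1.48 ± 0.39, the tripartite motif gene trim35-36 at 2.23 ± 0.62 and the clustered protocadherin gene pcdh2aa3, a neuronal adhesion molecule, at 1.46 ± 0.41 on 3 probes. These last 3 genes had adjusted p-values of 0.0768, 0.0862 and 0.0896. In control arrays trim35-36 had 7.22, 8.17 and 9.29, against 11.06, 9.84 and 10.49 in TMAT arrays, and its lowest control value lay close to the random probes of that array (6.73).

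Of 34 measured genes of transmission and synapses, 0 were higher and 8 lower at an unadjusted p under 0.05 (23.5%, against 13.8% of features with a symbol), and the median was −0.33, with −0.20 without control array 1. The NMDA receptor subunit gene grin1a had 11.38, 11.95 and 11.40 in TMAT arrays, against 12.70, 12.96 and 12.09 in control arrays. These groups were separated by 0.13 log2 units, with a difference of −1.004 ± 0.33 (limma adjusted p = 0.127). The serotonin receptor gene htr5ab was at −0.92 ± 0.36 and slc32a1, the vesicular transporter of GABA and glycine, at −0.72 ± 0.30. Voltage-gated and related channels had 11 of 26 members lower at an unadjusted p under 0.05 and 1 higher (trpv6, which the list shares with ionocytes), which is 42.3% lower and 3.85% higher. Their median was −0.52, with −0.38 without control array 2, −0.79 without control array 3 and −0.40 with random-probe intensity as a covariate. Among them were kcnj11, the pore of ATP-sensitive potassium channels (−1.19 ± 0.34, adjusted p = 0.0927), and the calcium channel beta subunit genes cacnb3a (−0.78 ± 0.23) and cacnb2a (−0.95 ± 0.30). For kcnj11 the TMAT arrays had 10.03, 10.68 and 10.14, against 11.41, 12.30 and 10.72 in control arrays, so control array 3 stood 0.03 above the highest TMAT array.

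Axon guidance and adhesion genes guide growth cones and hold neurites together. Of 47 measured, 2 were higher (4.26%) and 7 lower (14.9%) at an unadjusted p under 0.05, close to the 3.61% and 13.8% of features with a symbol. The median was −0.42, and −0.25 without TMAT array 3. The transmembrane semaphorin gene sema6d (NM_001017682) had 8.91, 9.22 and 9.48 in TMAT arrays, against 10.08, 10.81 and 10.25 in control arrays. The difference was −1.18 ± 0.26 (limma adjusted p = 0.0649). Every control lay at least 0.60 above the highest TMAT array. The cadherin gene cdh18a had 7.74, 7.88 and 7.74 in TMAT arrays, against 9.30, 9.81 and 8.21 in control arrays (−1.32 ± 0.31, adjusted p = 0.0652), and the receptor phosphatase gene ptprdb was at −1.09 ± 0.31 (adjusted p = 0.0924). The protocadherin pcdh2aa3, described above, was the exception of the list at an adjusted p under 0.1. Other neural and hormonal genes among the 15 were agbl4, a carboxypeptidase that trims glutamates from tubulin (−0.89 ± 0.22), and pthlha and adcyap1r1a, given above.

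Among muscle genes, smtnl1 (NM_001013321), a smoothelin-like regulator of muscle contraction, had 10.36, 10.33 and 10.21 in TMAT arrays, against 11.13, 11.88 and 11.13 in control arrays. The difference was −1.08 ± 0.23 (limma adjusted p = 0.0649). The leucine-rich repeat gene lrrc30a had 8.48, 9.03 and 8.57 in TMAT arrays, against 10.00, 11.01 and 9.47 in control arrays (−1.47 ± 0.33, adjusted p = 0.0649). The tropomyosin gene tpm1 (−1.07 ± 0.31, adjusted p = 0.0962) and the muscle transcription cofactor gene vgll2a (−1.13 ± 0.34, adjusted p = 0.104) also had no overlap between groups. Of 31 measured genes of skeletal muscle, 0 were higher and 6 lower (19.4%, against 13.8% of features with a symbol) at an unadjusted p under 0.05. The median was −0.07, against −0.24 over features with a symbol. It was −0.13 without control array 2 and 0.04 with centred arrays. In the list 22 genes had negative and 9 positive differences, where 72.1% of features with a symbol were negative. The muscle genes given here are those with the smallest p of the list. Others lay near 0, such as the actin gene acta1b at 0.02 and the troponin gene tnnc1b at −0.04. In the heart list of 4 genes the cardiac myosin gene myh6 was at −1.29 ± 0.40 (adjusted p = 0.109) and the other 3 were between −0.27 and 0.06.

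Of 38 measured genes of early patterning and somites, 12 were lower (31.6%, against 13.8% of features with a symbol) and 1 was higher (2.63%, against 3.61%) at an unadjusted p under 0.05. The median was −0.27, against −0.24 over features with a symbol, and −0.49 without control array 3. It was −0.22 with random-probe intensity as a covariate and −0.16 with centred arrays. The Iroquois homeobox gene irx3b (NM_213100) had 10.51, 11.06 and 10.64 in TMAT arrays, against 11.99, 13.08 and 11.63 in control arrays (−1.50 ± 0.35, limma adjusted p = 0.0652). Control array 2 was the highest of the controls. The signalling gene wnt3a had 8.70, 8.65 and 7.77 in TMAT arrays, against 10.31, 11.03 and 9.21 in control arrays (−1.81 ± 0.53, adjusted p = 0.0989). The paired-box gene pax1a was at −0.68 ± 0.24 and irx2a at −0.76 ± 0.28. The gene tle5, of the Groucho family, had 12.28, 12.04 and 12.26 in TMAT arrays, against 13.07, 13.20 and 12.82 in control arrays (−0.84 ± 0.21, adjusted p = 0.0688). Of the remaining named lower genes, tpra1 was at −1.49 ± 0.28 (adjusted p = 0.0649), dipk1aa at −1.17 ± 0.29 (0.0689) and mettl27 at −1.03 ± 0.26 (0.0698).

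Genes of the response to oxidative stress were found on both sides. The small Maf gene mafga (NM_001002045), a partner of Nrf2 and Bach proteins at antioxidant genes, had 10.97, 10.88 and 10.90 in TMAT arrays, against 12.03, 12.74 and 11.45 in control arrays. The difference was −1.16 ± 0.25 (limma adjusted p = 0.0649). On the higher side, the glutathione transferase gene gstp1.1 had 11.73, 11.03 and 11.82 in TMAT arrays, against 9.97, 9.59 and 10.54 in control arrays (1.49 ± 0.43, adjusted p = 0.0936), and msrb2, which repairs oxidized methionine, had 13.95, 13.81 and 13.36 in TMAT arrays, against 11.55, 11.74 and 12.91 in control arrays (1.64 ± 0.48, adjusted p = 0.0964). Neither gene had overlapping groups. Of 27 measured features of the oxidative stress list, 5 were higher (18.5%) and 2 lower (7.41%) at an unadjusted p under 0.05. The shares over features with a symbol were 3.61% higher and 13.8% lower. The member ggact.1, 1 of the 5 higher, was at 0.69 ± 0.30. Members were matched by symbol, and whether the ggact genes belong to this response was not tested. The median of the list was 0.01 and changed sign among the fits that left out 1 array.

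Of 39 measured genes of xenobiotic metabolism, 4 were higher (10.3%) and 1 lower (2.56%) at an unadjusted p under 0.05. The shares over features with a symbol were 3.61% and 13.8%. The median of the list was −0.02 and turned to 0.09 with centred arrays. The 4 higher members were cytochrome P450 genes, whose enzymes oxidize drugs, steroids and fatty acids. The gene cyp2aa1 had 10.98, 10.75 and 11.19 in TMAT arrays, against 10.22, 9.58 and 10.62 in control arrays (0.83 ± 0.24, limma adjusted p = 0.0941). The gene cyp46a1.3 was at 1.36 ± 0.42 and cyp2aa3 at 0.98 ± 0.32, both without overlap, and the efflux transporter gene abcg2a was at −0.72 ± 0.27. Cross-hybridization among the probes of these related cytochrome genes was not tested.

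The cell death genes named here were lower, among them members of opposed function. Of 13 measured genes of apoptosis and the p53 response, 0 were higher and 3 lower (23.1%) at an unadjusted p under 0.05. Of features with a symbol 96 were higher (3.61%) and 367 lower (13.8%) at that threshold, so lower values were the more common ones there too. The median of the list was −0.57. The gene pmaip1, for the death-promoting protein Noxa, had 8.70, 8.99 and 9.22 in TMAT arrays, against 10.43, 11.31 and 9.61 in control arrays (−1.48 ± 0.43, limma adjusted p = 0.0954). The gene birc7, of the inhibitors of apoptosis, had 9.004, 9.62 and 9.51 in TMAT arrays, against 10.55, 11.30 and 10.03 in control arrays (−1.25 ± 0.32, adjusted p = 0.0698). In both genes control array 2 was highest and control array 3 lowest among controls. The gene phlda1 was at −1.19 ± 0.37 and tp53bp1, a DNA damage response gene, at −0.99 ± 0.51. Without control array 2 the median of the list was −0.22 and without control array 3 it was −0.92, and with random-probe intensity as a covariate it was −0.16.

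Genes of metal handling, heat shock, endoplasmic reticulum stress and the cell cycle gave at most 1 member each at an unadjusted p under 0.05. Over features with a symbol the shares at that threshold were 3.61% higher and 13.8% lower. All 7 measured genes of metal handling had negative values (median −0.45), where 72.1% of features with a symbol did. Of these genes 0 had an unadjusted p under 0.05, and the copper transporter gene atp7a was at −1.18 ± 0.58. Of 19 heat shock and chaperone genes, 1 was higher at an unadjusted p under 0.05, the cochaperone gene bag2 at 0.72 ± 0.27, and the median was −0.18. Of 6 genes of endoplasmic reticulum stress and 14 of the cell cycle and DNA replication, 0 had an unadjusted p under 0.05. Their medians were −0.02 and −0.05, with creb3l2 at −0.96 ± 0.56 and the replication gene mcm10 at −0.71 ± 0.36. The median SE of a difference over all features was 0.33, so these lists do not show that the genes were alike in both groups.

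Of 27 genes of cholesterol and lipid metabolism, 1 was higher (3.70%) and 3 lower (11.1%) at an unadjusted p under 0.05. The shares over features with a symbol were 3.61% and 13.8%. The isoprenoid enzyme gene idi1 was at −0.94 ± 0.27 (limma adjusted p = 0.0941). Of 67 solute carriers 2 were higher (2.99%) and 10 lower (14.9%), near the shares over features with a symbol, and their median of −0.29 was −0.14 without control array 2 and −0.46 without control array 3. Of 54 genes of ubiquitin and the proteasome 4 were higher (7.41%) and 9 lower (16.7%). Their median of −0.29 was −0.21 without control array 2 and −0.49 without control array 3. Of 29 mitochondrial genes 1 was higher and 1 lower, the mitochondrial ribosome gene mrps27 at −0.48 ± 0.20. Of 21 genes of the ribosome and translation 2 were higher and 0 lower, led by the elongation factor gene eef1a1l2 at 1.33 ± 0.42. Of 9 pigment cell genes 1 was higher, the melanosome gene pmela at 2.19 ± 0.90, a feature of 3 probes whose control arrays spread over 10.28, 8.84 and 12.39, against 12.42, 13.04 and 12.64 in TMAT arrays.

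Blood, vessel, skeletal, liver, egg coat, clock and chemosensory genes gave at most 3 members each at an unadjusted p under 0.05. The shares over features with a symbol were 3.61% higher and 13.8% lower. Of 10 erythroid and haem genes 1 was higher and 2 lower, with the haem enzyme gene ppox at −0.70 ± 0.29. Of 11 genes of vessels and blood formation 1 was higher, the sphingosine phosphate receptor gene s1pr5b at 1.19 ± 0.45, and 0 were lower. Of 17 genes of cartilage, bone and matrix 0 were higher and 2 lower, with the collagen gene col19a1 at −0.82 ± 0.31. Of 10 liver and pancreas genes 0 had an unadjusted p under 0.05, and the yolk precursor gene vtg5, at −0.70 ± 0.47, turned to 0.12 without control array 2. The 4 egg coat genes had a median of 0.27, with zp3.2 at 0.67 ± 0.39. The 5 clock genes all had negative values (median −0.59), where 72.1% of features with a symbol did, with rorca at −0.87 ± 0.44. Of 23 odorant and taste receptor genes 1 was higher and 1 lower, with the taste receptor gene tas2r200.1 at 1.16 ± 0.43. Its value in control array 2, 7.32, was below the random-probe level of that array (7.40), so the size of this difference is not exact.

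**Figure D4:**
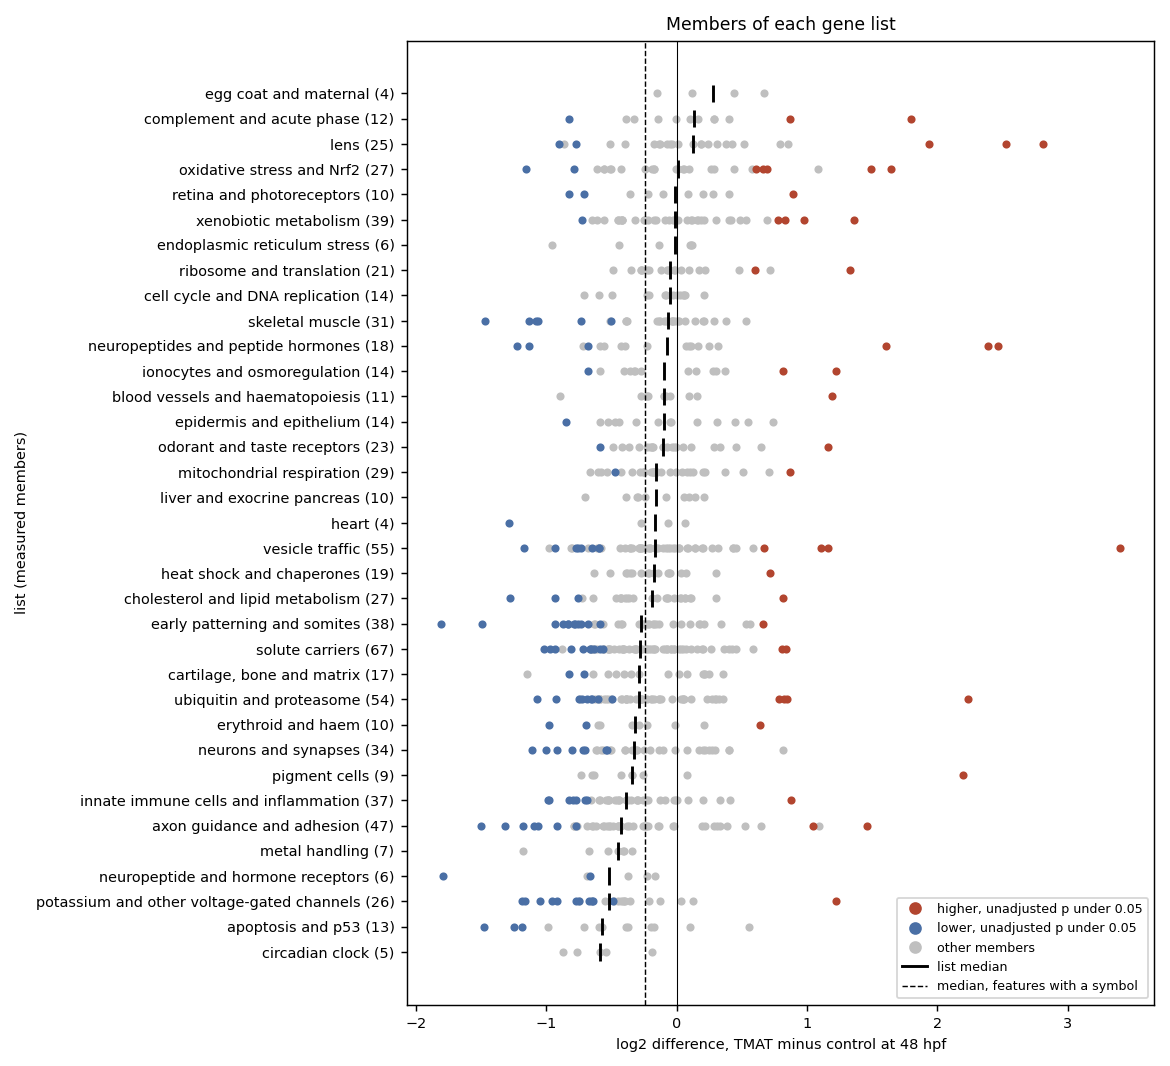
Log2 difference between TMAT and control embryos at 48 hpf for each measured member of the 35 gene lists, ordered by list median (thick bar). Red and blue points are members higher and lower at an unadjusted p under 0.05, grey points are other members, and the dashed line is the median of all features with a symbol (−0.24). The medians of the lens, complement and oxidative stress lists lie to the right of the dashed line, and those of the apoptosis and channel lists to its left.

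At 24 hpf the median difference of the 15 named higher genes was 0.40, against 1.87 at 48 hpf. For the 15 lower genes it was −0.29, against −1.17 at 48 hpf. Genes chosen at 48 hpf would tend to lie nearer to 0 at another age, so these values do not show a smaller effect. The arrays at 24 hpf enter the comparison at 48 hpf only through the shared estimate of the spread. Of the 15 named higher genes 14 were positive at 24 hpf and of the 15 lower genes 10 were negative, 2 of each at an unadjusted p under 0.05. Those were trappc2l (1.21, 95% interval 0.03 to 2.39), c3a.2 (0.99, 0.19 to 1.80), sema6d (−0.87, −1.42 to −0.32) and pdyn (−0.61, −1.17 to −0.05). The avp gene was at 0.45 and npffl at 0.89, while crygm2d4, at −0.38, was the 1 higher gene with a negative value. Of the 929 features higher at 48 hpf at an adjusted p under 0.1, 881 (94.8%) were positive at 24 hpf, where 41.9% of all features were. Of the 553 lower features 409 (74.0%) were negative at 24 hpf, where 58.1% of all features were. Random-probe intensity at 24 hpf was 86.1, 92.6 and 87.4 in TMAT arrays, against 99.5, 126 and 84.4 in control arrays. The median SD at that age was 0.33 in TMAT and 0.48 in control arrays. Whether the background of the arrays has a part in the shared direction was not tested. No feature was called at 24 hpf: limma found 0 at an adjusted p under 0.05 (smallest 0.654) and 2242 (6.04%) at an unadjusted p under 0.05.

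The change of the TMAT difference between the ages was tested in the same fit. Limma found 0 features at an adjusted p under 0.05 (smallest 0.610) and 2772 (7.47%) at an unadjusted p under 0.05. The named genes were chosen on the 48 hpf arrays, which this contrast shares, so their values are a description. The difference was larger at 48 hpf by 2.90 for crygm2d4 (95% interval 0.98 to 4.83), 1.94 for avp (0.60 to 3.29), 1.13 for trpv6 (0.37 to 1.88) and 2.19 for trappc2l (0.52 to 3.86). It was lower at 48 hpf by −1.81 for adcyap1r1a (−2.79 to −0.84), −1.58 for tpra1 (−2.42 to −0.75) and −1.08 for mafga (−1.83 to −0.32). For c3a.2, sema6d and pdyn the interval of the change held 0. Without control array 3 at 48 hpf 7556 features had an unadjusted p under 0.05, and without TMAT array 3 there were 1373.

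Compared directly, TMAT and MES embryos at 48 hpf differed little in the named genes. TMAT embryos had 10 µg/mL and MES embryos 50 µg/mL, so ligand and dose cannot be told apart here. Limma found 0 features at an adjusted p under 0.05 (smallest 1.00) and 590 (1.59%) at an unadjusted p under 0.05, with a median over all features of 0.0045. The 30 genes were chosen on the TMAT arrays at 48 hpf, which this contrast shares, so their values are a description. Of the 30, trpv6 was the 1 with an unadjusted p under 0.05 in limma, and it was not called. It averaged 12.04 ± 0.17 in TMAT arrays, against 10.86 ± 0.18 in MES arrays and 10.82 ± 0.38 in control arrays (SD, n = 3 each), a difference between the particles of 1.18 (95% interval 0.65 to 1.72). For avp the difference between TMAT and MES embryos was 0.08 (−0.87 to 1.03), for crygm2a −0.03 (−1.34 to 1.28), for adcyap1r1a 0.34 (−0.35 to 1.03) and for mafga 0.25 (−0.28 to 0.78). The intervals of the 29 genes other than trpv6 held 0. The widest of them, that of crygm2d4, ran from −1.46 to 1.26, so equality of the particles was not shown. Among list members, cyp2aa1 was 0.55 higher and zp3.2 0.98 lower in TMAT than in MES embryos, both at an unadjusted p under 0.05.

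**Figure D5:**
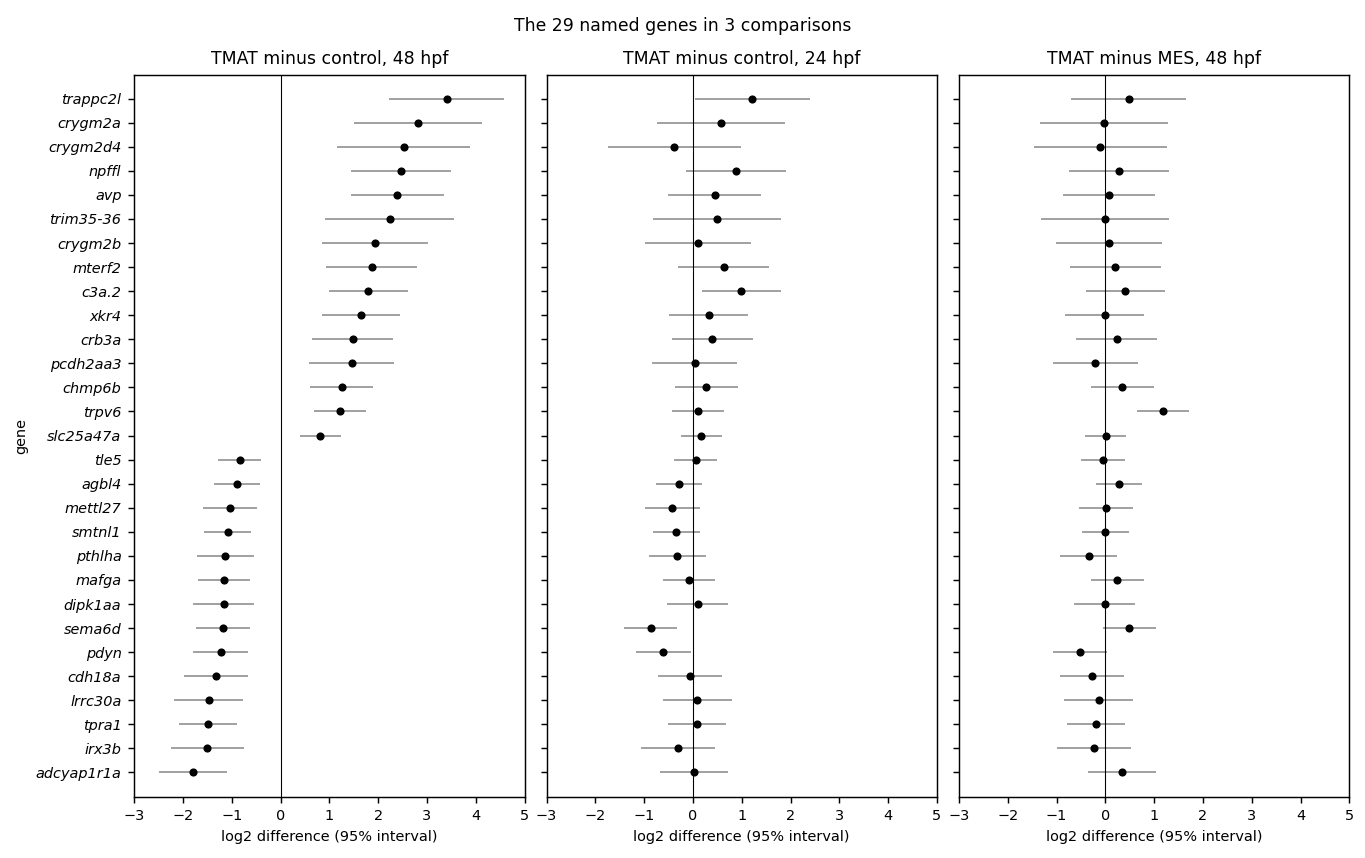
Log2 differences with 95% intervals for 29 genes taken by the naming rule, ordered by their difference at 48 hpf: TMAT minus control at 48 hpf (left), TMAT minus control at 24 hpf (middle) and TMAT minus MES at 48 hpf (right). Most genes lie near 0 in the right panel, and trpv6 at 1.18 has an interval above 0.

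Features that change with age were then compared between TMAT and control embryos. The 767 features at least 4-fold higher at 48 than at 24 hpf in the MES arrays had a median difference between TMAT and control embryos of 0.00 at 48 hpf, against −0.15 for all features. Of these 767, 16.4% were higher and 9.26% lower at an unadjusted p under 0.05, where 8.25% and 12% of all features were. The 345 features at least 4-fold lower at 48 hpf had a median of −0.32, with 1.16% higher and 21.2% lower. Their median log2 intensity was 9.57, 9.77 and 9.80 in TMAT arrays, against 9.99, 9.99 and 10.04 in control arrays. These 3 and 3 values did not overlap, and no test was run on them. In the 767 features the median log2 intensity was 12.67, 12.64 and 12.28 in TMAT arrays, against 12.49, 12.41 and 12.30 in control arrays, and TMAT array 3 lay below every control.

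Features without a gene symbol held the largest fitted differences. On the higher side, ENSDART00000056971 (3 probes) had 13.04, 11.996 and 13.69 in TMAT arrays, against 6.47, 6.76 and 10.18 in control arrays, a fitted difference of 5.11 ± 1.00. Its values in control arrays 1 and 2 were below the random-probe levels of those arrays (6.73 and 7.40), so 1 of 3 controls measured it and the size of the difference is not exact. ZV700S00004428 (8 probes) had 15.04, 13.54 and 14.82 in TMAT arrays, against 8.22, 7.54 and 12.31 in control arrays, a difference of 5.10 ± 1.12. Both had an adjusted p of 0.0649, and in both control array 3 lay between the other controls and the TMAT arrays. On the lower side, OTTDART00000017652 (10 probes) had 7.60, 8.18 and 7.84 in TMAT arrays, against 10.37, 11.49 and 9.33 in control arrays, a difference of −2.53 ± 0.65 (limma adjusted p = 0.0731). OTTDART00000024704 (7 probes) was at −2.29 ± 0.54 (adjusted p = 0.0652).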

How the data were processed

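Total RNA of pooled whole embryos was hybridized to 1-colour NimbleGen arrays. The deposited intensity values, 1 table per array, were background corrected, normalized and summarized per feature with RMA by the authors, per the submitters' processing notes (no version stated). Log2 was taken with no further scaling, and the control feature of random probes was left out. Symbols came from a RefSeq gene table. One limma fit (3.58.1, R 4.3.3) of 6 group means over all 18 arrays gave moderated two-sided tests, adjusted by Benjamini-Hochberg over 37105 features. A call is an adjusted p under 0.05. The code of the fit was run on simulated data with the same SD in every group. Control arrays here varied more than TMAT arrays, so that run does not bear on the p-values or SE of these data. The array number limits the precision. Named genes are the 15 with the smallest p in each direction among informative symbols without overlap between groups, up to 4 members of each central gene list, 1 of other lists, and all measured gamma M2 crystallins. The members and lists were chosen with earlier results of these data known, and 53 of 836 list memberships were removed by function after values were seen. One gene taken by the rule is not reported here. Alternatives covered the arrays in the fit, scaling, pseudocount, dim features, moderation, array weights, random-probe intensity, replicate number, labels and single arrays.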

Additional observations from a re-analysis of the deposited data

How the results depend on the processing

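At an adjusted p under 0.05, TMAT against control at 48 hpf gave 0 features in the limma fits that used only the 6 arrays of both groups, only the 9 arrays at 48 hpf, centred arrays, a second quantile normalization, 64 added to each intensity, no dim features, trend and robust moderation, no moderation, random-probe intensity as a covariate, a replicate block or the combined table, and 14393 with array weights. At an adjusted p under 0.1 the 1482 features became 0 with 6 arrays, 9 arrays, random-probe intensity as a covariate, the replicate block or the combined table, 5 without moderation and 17718 with array weights. At an unadjusted p under 0.05 the 7519 became 17913 with array weights, 2718 with the covariate and 151 with the combined table. In the combined table the columns labelled control at 48 hpf hold MES arrays, so its counts are not of TMAT against control. Array weights were estimated gene by gene, because the other estimate did not converge. They were 6.39, 0.19 and 0.35 for control arrays 1, 2 and 3 at 48 hpf. Among the controls, that fit therefore rested mostly on control array 1. With 1 array left out, the counts ran from 0 to 6310, from 0 to 9877 and from 3754 to 12463 at these 3 thresholds, the highest each time without control array 3. Without control arrays 1 and 2, chosen after the data were seen, they were 0, 0 and 875. TMAT against MES had 590 features at an unadjusted p under 0.05, 1032 with 9 arrays, 1028 with the replicate block and 119 to 837 with 1 TMAT array left out. The change between ages had 2772, and 1373 to 7556 with 1 array left out. Whether replicate numbers pair the samples was not settled. Correlations of same-numbered deviations between TMAT and control arrays at 48 hpf ran from −0.04 to 0.44, over 0.1 in 2 of 3 pairs. Those of differently numbered arrays ran from −0.40 to 0.29, which overlaps that range. The replicate block left 7109 features at an unadjusted p under 0.05.

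The 30 genes taken by the naming rule had no overlap between groups. Fits that left out arrays or changed only the moderation could therefore not turn their direction. The 30 genes kept it in each fit of the per-array tables. Other named features turned in some: the second xkr4 feature was at −0.0736 with array weights, and with the covariate rs1a was at −0.0860, vtg5 at 0.11, crygm2d3 at −0.0647 and crygm2d20 at −0.0425. With 1 array left out, rs1a ran from −0.13 without control array 2 to 0.77 without control array 3, and vtg5 from −1.18 without control array 3 to 0.12 without control array 2. The combined-table columns labelled control at 48 hpf equal the per-array tables of MES arrays of both ages. Those labelled TMAT at 48 hpf equal tables of TMAT arrays of both ages. Values from the combined table therefore do not compare TMAT with control embryos. In the combined table as labelled, whose columns for these groups mix ages, these log2 differences reversed: avp −0.42, npffl −0.20, crygm2a −0.38, trim35-36 −0.64, pcdh2aa3 −0.17, adcyap1r1a 0.39, tpra1 0.11, mafga 0.17, sema6d 0.32, lrrc30a 0.18, irx3b 0.15, agbl4 0.11, tle5 0.077, dipk1aa 0.16, mettl27 0.11, guca1ab.1 −0.21, rs1a −0.039, vipr1b 0.059, grin1a 0.60, slc32a1 0.052, ptprdb 0.68, vgll2a 0.55, myh6 0.013, ca15c −0.23, crp4 −0.19, msrb2 −0.31, atp7a 0.56, cyp46a1.3 −0.32, bag2 −0.00948, creb3l2 0.20, birc7 0.19, phlda1 0.41, tp53bp1 0.31, idi1 0.14, pmela −0.14, ppox 0.43, col19a1 0.21, wnt3a 0.25, zp3.2 −1.08, rorca 0.78, kcnj11 0.33, cacnb2a 0.27, tas2r200.1 −0.85, crygm2d7 −0.14, crygm2d2 −0.11, crygm2d5 −0.23, crygm2d3 −0.059, crygm2d13 −0.19 and crygm2d20 −0.16. The 3 arrays a group and the random-probe level of each array limit what dim features show.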
